A study of Zea mays with 18 samples.

Results

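The step from jointing to big flare in the maize (Zea mays) stem was measured in 12 of the 18 stem libraries of the series, namely all 6 libraries of jointing and all 6 of big flare. Jointing is the start of stem elongation, and big flare is the late whorl stage, shortly before the tassel emerges. The 3 hybrids share the parent Dan 598 and are labelled by their height. They are a low hybrid (L, Dan 598xFAPW), a middle hybrid (M, Dan 598xCML444) and a high hybrid (H, Dan 598xES40). Each hybrid gave 2 libraries at each of the 2 stages, numbered 1 and 2 here. All 12 are of stem tissue, and the labels name no agent or mutation. Since 1 hybrid stands for each height, height and genotype cannot be told apart. The sampled internode is not named in the labels. Nor do they say that paired libraries were made from different plants. The p-values therefore rest on a spread between libraries that may be technical.

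A grass stem grows from meristems at the base of each internode. Cells that leave this zone first lengthen, which takes loosened walls, water uptake into the vacuole and sugar, and then mature, when xylem vessels build secondary walls, lignify and die. Gibberellin, auxin and brassinosteroid promote elongation, cytokinin and KNOX homeobox factors keep meristem cells undifferentiated, and phase regulators such as MADS-box factors turn the shoot to flowering.

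Levels are FPKM as the authors deposited them, a fragment count corrected for the length of the transcript and the size of the library. A step is the difference big flare minus jointing in mean log2(FPKM + 1), averaged over the 3 hybrids, and its error is the standard error from limma. Each p was adjusted by the Benjamini-Hochberg method over all 26792 genes tested, and a gene rose or fell where the adjusted p was below 0.05. Gene names are best protein matches, and no gene is placed on the genome here. Called genes described below that lost their call under any of 21 alternative settings are given with those settings, and the others kept it under all 21. Beside the counts of each gene list stand the shares over all genes in the main fit. Where a count of 3 or more was reached, every library or setting that moved it by over 1.5 times is also given. The counts over all genes moved under those settings too. The main shares are therefore no measure for a list count under an omission or another setting. For most lists the summed FPKM of the members overlapped between stages, and its range is given for some lists only.

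Between the stages 1954 genes were higher at big flare, which is 7.29% of the genes tested, and 1356 were lower, which is 5.06%. Of these, 760 rose by 1 log2 unit or more and 948 fell by as much. The balance of rises and falls depended on the scaling: median-of-ratios scaling gave 1415 higher and 1769 lower genes, and the median step over all genes was 0.07 log2 units as deposited and -0.02 after that scaling. All 6 big flare libraries lay above all 6 jointing libraries for 929 genes (3.47%) and below them for 399 (1.49%). The counts also leaned on single libraries. Leaving out low big flare 2 gave 953 higher and 641 lower, middle big flare 1 gave 969 and 661, middle jointing 2 gave 985 and 806, high big flare 2 gave 1025 and 850, and high big flare 1 gave 1287 and 823. Without high jointing 2 the count of higher genes was 1117, and without low jointing 2 it was 1235.

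The first principal component of the 12 libraries held 27.8% of the variance and separated the stages, from -74.2 to -18.7 at jointing and from 4.80 to 97.3 at big flare. The second, with 16%, set the low hybrid apart, at 38.0 or above against -21.7 or below for the other hybrids. Low big flare 1 and middle big flare 2 stood nearest to the jointing side. Among the called genes, low big flare 1 was the big flare library closest to the jointing mean for 33.4% and middle big flare 2 for 26.4%, against 6.3% to 13.6% for the other 4. Low big flare 1 and low jointing 2 were each other's nearest library (r = 0.914 across genes), and high jointing 1 was nearest to high big flare 1 (0.91). With low jointing 2 and low big flare 1 both left out, 1486 genes were higher and 1666 lower. Relative depth, estimated from the steps of low FPKM values, ran from 0.446 to 1.0 of the deepest library, with a mean of 0.612 at jointing and 0.564 at big flare, and the absolute depth is unknown.

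**Figure D1:**
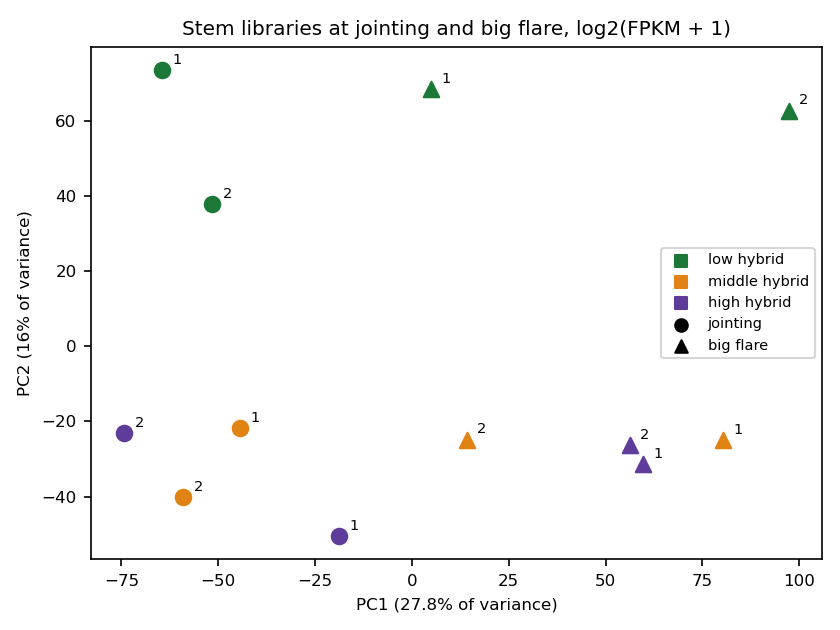
The 12 libraries on the first and second principal components of log2(FPKM + 1), with hybrids in colour, jointing as circles, big flare as triangles and the library number beside each mark. Jointing libraries lie at -18.7 or lower on the first component and big flare libraries at 4.80 or higher.

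The labels give the tissue as stem, and the marker sums here do not identify it on their own. Photosystem, antenna and Rubisco genes, of green tissue, summed to 7085 to 19370 FPKM at jointing and 5150 to 12460 at big flare. All 12 KNOX genes were tested, and their summed level ran from 383 to 444 FPKM at jointing and from 470.1 to 632 at big flare. Of 4 genes named as root markers 1 could be tested. Their sum was 11.6 FPKM in low jointing 1 and 5.09 in middle jointing 1. It did not pass 0.3 in the remaining jointing libraries or 0.48 at big flare. Of 33 anther and pollen genes none passed (0% each way, against 7.29% and 5.06% of all genes). At an unadjusted p under 0.05, 1 was higher and 6 lower, against 4577 higher and 3115 lower of all 26792 genes tested. With 1 library left out up to 1 rose and up to 3 fell. Their summed level was 441 to 669 FPKM at jointing and 330.3 to 623 at big flare. Phloem was represented by 5 genes, of which none passed (0% each way, against 7.29% and 5.06% of all genes). Unadjusted, 0 were higher and 1 was lower. Sucrose transporter 1 (Zm00001d027854), which loads sucrose into phloem, stood at 167 to 490.5 FPKM at jointing (median 242) and 198 to 426 FPKM at big flare (median 332) (step 0.39 ± 0.38, adjusted p = 0.53). In bulk tissue, fewer cells of a type and less RNA per cell cannot be told apart.

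Xylem and secondary wall genes gave falls and no rise, although their summed level overlapped between stages. It ran from 347 to 1364 FPKM at jointing and from 177 to 563 at big flare. Of 16 tested members none rose and 5 fell (0% and 31.2%, against 7.29% and 5.06% of all genes), and the median step was -1.15 log2 units against 0.07 for all genes. When single libraries were dropped, none rose and 3 to 7 fell (3 omitting low big flare 2, middle jointing 2, middle big flare 1, high jointing 2 or high big flare 2). Under other settings 0 rose and 3 fell with no filter on low values or a fit on the 12 libraries alone. The xylem cysteine proteinase 2 gene Zm00001d035689, which in Arabidopsis digests the contents of dying vessel cells, ranged from 16.4 to 373 FPKM at jointing (median 171) and 0.22 to 7.59 FPKM at big flare (median 0.965). Its step was -5.50 ± 0.74, adjusted p = 0.0014. Every big flare library lay below every jointing library, although high jointing 1, at 16.4 FPKM, was far below high jointing 2 at 373. At tasseling, which was not part of this contrast, the gene stood at 63.2 to 471 FPKM (median 170.0). A second match to this proteinase (Zm00001d011787) had 25 to 324 FPKM at jointing (median 134) and 2.08 to 60.5 FPKM at big flare (median 7.26), with a step of -3.05 ± 0.87, adjusted p = 0.04. The second proteinase gene lost its call under 7 of the 12 single-library omissions (all but those of low jointing 1, low big flare 1, middle jointing 1, middle big flare 2 and high jointing 1) and with no filter on low values, a fit on the 12 libraries alone or low jointing 2 and low big flare 1 both left out (adjusted p up to 0.114).

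Cellulose synthases, which spin the wall's cellulose fibrils, gave no call with all libraries in the fit. Of the 5 tested catalytic subunits 0 passed by limma (0% each way, against 7.29% and 5.06% of all genes). At an unadjusted p under 0.05, 2 were lower, against 3115 of all 26792 genes tested. Leaving out low big flare 1 gave 2 falls, as did leaving out both low jointing 2 and low big flare 1, and leaving out middle big flare 2 gave 1. Cellulose synthase-9 (Zm00001d005250) had 189.7 to 247 FPKM at jointing (median 217) and 91.7 to 222 FPKM at big flare (median 125), a step of -0.63 ± 0.22, adjusted p = 0.0815. It passed without low big flare 1 (adjusted p = 0.0182), without middle big flare 2 (0.0423) and without both low libraries (0.0432), and under the other 18 settings it did not. Among 45 genes of lignin synthesis and laccases, 3 rose and 4 fell (6.67% and 8.89%, against 7.29% and 5.06% of all genes). Under omission of 1 library, 2 to 4 rose and 0 to 10 fell (0 omitting low big flare 2 or middle jointing 2, 1 omitting middle big flare 1, high jointing 2 or high big flare 2, 2 omitting low jointing 2, 7 omitting low jointing 1, 10 omitting low big flare 1). In the other fits 3 rose and 2 fell with quantile normalization, a pseudocount of 0.1, no filter on low values or low jointing 2 and low big flare 1 both left out. A laccase-23-like gene (Zm00001d052324), of the oxidases that couple lignin monomers, rose from 1.77 to 32.9 FPKM at jointing (median 11.2) to 32.9 to 131 FPKM at big flare (median 44.5). The step was 2.50 ± 0.45, adjusted p = 0.0057. The highest jointing library, middle jointing 1, lay at the level of the lowest big flare library, high big flare 1. A cinnamyl alcohol dehydrogenase family gene (Zm00001d020402), of the enzymes that make lignin alcohols, fell from 318 to 585 FPKM at jointing (median 495) to 163 to 331 FPKM at big flare (median 258) (-0.91 ± 0.21, adjusted p = 0.017). The dehydrogenase gene lost its call without low big flare 2 or middle jointing 2 and with low jointing 2 and low big flare 1 both left out (adjusted p up to 0.051). Caffeoyl-CoA O-methyltransferase 1 (Zm00001d005998), which methylates lignin precursors, rose from 2.74 to 10.2 FPKM at jointing (median 4.59) to 11.4 to 17.8 FPKM at big flare (median 15.1) (1.41 ± 0.33, adjusted p = 0.018), without overlap. The methyltransferase gene lost its call without middle jointing 2, middle big flare 1 or high jointing 2 (adjusted p up to 0.0569). A phenylalanine ammonia-lyase gene (Zm00001d017279), of the entry step of the pathway, fell from 5.94 to 53.7 FPKM at jointing (median 31.9) to 0.52 to 16.2 FPKM at big flare (median 4.91) (-2.36 ± 0.69, adjusted p = 0.0435). The ammonia-lyase gene lost its call under 9 of the 12 single-library omissions (all but those of low jointing 1, low big flare 1 and middle big flare 2) and with a pseudocount of 0.1, no filter on low values, a fit on the 12 libraries alone, the replicate number as a block or an additive fit on the 12 libraries (adjusted p up to 0.125).

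Primary walls of growing cells are modified by enzymes that act on xyloglucan, xylan and pectin and by expansins. Of 42 xyloglucan and xylan genes 4 rose and 10 fell (9.52% and 23.8%, against 7.29% and 5.06% of all genes). Of 26 expansins 2 rose and 6 fell (7.69% and 23.1%, against 7.29% and 5.06% of all genes), and of 42 pectin enzymes none rose and 6 fell (0% and 14.3%, against 7.29% and 5.06% of all genes). Their median steps were -0.47, -1.10 and -0.54. The summed level of each list overlapped between stages. Xyloglucan and xylan genes summed to 2284 to 4438 FPKM at jointing and 695 to 2470 at big flare. Expansins summed to 931 to 1717 FPKM at jointing and 220.5 to 2558 at big flare. Pectin enzymes summed to 301 to 711 FPKM at jointing and 129 to 676 at big flare. Across the 12 single-library omissions, 2 to 4 of the xyloglucan and xylan genes rose (2 omitting low big flare 2, middle jointing 2 or middle big flare 1) and 2 to 13 fell (2 omitting low big flare 2, 3 omitting middle big flare 1, 4 omitting high jointing 2 or high big flare 1, 5 omitting middle jointing 1 or high big flare 2, 6 omitting low jointing 2 or middle jointing 2). By other choices 4 rose and 6 fell with no filter on low values, and 3 rose and 5 fell with a fit on the 12 libraries alone. On leaving out single libraries, 0 to 2 of the expansins rose and 1 to 8 fell (1 omitting middle big flare 1, 2 omitting low big flare 2, middle jointing 2, high big flare 1 or high big flare 2, 3 omitting low jointing 1 or high jointing 2). With the processing changed, 2 rose and 1 fell with a fit on the 12 libraries alone. Over the 12 fits without 1 library, 0 to 1 of the pectin enzymes rose and 0 to 11 fell (0 omitting low big flare 2, middle big flare 1 or high big flare 1, 2 omitting low jointing 1, middle jointing 2 or high jointing 2, 3 omitting middle jointing 1, 10 omitting middle big flare 2, 11 omitting low big flare 1). Among the other alternatives, 1 rose and 10 fell with low jointing 2 and low big flare 1 both left out.

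A xyloglucan endotransglycosylase gene (Zm00001d024386), whose product cuts and rejoins the tethers between cellulose fibrils, was abundant at 472 to 1058 FPKM at jointing (median 949) and fell to 104 to 635 FPKM at big flare (median 208). The step was -1.87 ± 0.41, adjusted p = 0.013. Low jointing 1, at 472, was the one jointing library within the big flare range. A xylosyltransferase 1 gene (Zm00001d031223), of enzymes that build wall polysaccharides, had 19.6 to 40.5 FPKM at jointing (median 25.8) and 13.1 to 20.4 FPKM at big flare (median 17.3) (-0.69 ± 0.15, adjusted p = 0.015). Expansin-like 3 (Zm00001d029783), of the family that loosens walls without cutting them, fell from 10.8 to 30.6 FPKM at jointing (median 17.8) to 3.37 to 9 FPKM at big flare (median 6.42). The step was -1.45 ± 0.18, adjusted p = 0.0009. For this gene the stages did not overlap.

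Other wall genes rose. A beta-D-xylosidase 7 match (Zm00001d052793), which trims xylose from xylan, rose from 0.84 to 32.5 FPKM at jointing (median 6.25) to 9.74 to 229 FPKM at big flare (median 62). The step was 3.03 ± 0.50, adjusted p = 0.0038. An endo-1,4-beta-xylanase gene (Zm00001d039958), which cuts the xylan backbone, had 0.57 to 21.6 FPKM at jointing (median 1.89) and 11.1 to 88.4 FPKM at big flare (median 26.7) (2.96 ± 0.56, adjusted p = 0.0069). For the xylosidase gene both middle jointing libraries lay within the big flare range, at 32.5 and 12.4 FPKM. For the xylanase gene middle jointing 1 did, at 21.6, and the other 5 jointing libraries were at 2.06 or lower. Beta-expansin 7 (Zm00001d029906) rose from 0.68 to 33.9 FPKM at jointing (median 2.54) to 7.66 to 386 FPKM at big flare (median 65.9) (3.67 ± 0.89, adjusted p = 0.021). Beta-expansin 7 lost its call without low jointing 2, middle jointing 2 or high big flare 2 and with low jointing 2 and low big flare 1 both left out (adjusted p up to 0.0852). The gene Zm00001d027283, named expansin-B7, went the other way, from 0.65 to 17.8 FPKM at jointing (median 6.58) to 0 to 0.8 FPKM at big flare (median 0.22) (-2.31 ± 0.55, adjusted p = 0.019). Expansin-B7 lost its call without low big flare 2, middle jointing 2, middle big flare 1 or high big flare 1 and with a fit on the 12 libraries alone (adjusted p up to 0.0553).

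Class III peroxidases, which use hydrogen peroxide to stiffen walls or couple lignin, were called in both directions. Of 30 tested members 2 rose and 4 fell (6.67% and 13.3%, against 7.29% and 5.06% of all genes), and their summed level ran from 1162 to 1952 FPKM at jointing and from 405 to 1084 at big flare, without overlap. If any 1 library was omitted, 2 to 3 rose and 2 to 6 fell (2 omitting middle big flare 1). Under other settings 2 rose and 2 fell with a fit on the 12 libraries alone. Peroxidase 72 (Zm00001d040364), tied to lignin in Arabidopsis, fell from 178 to 297 FPKM at jointing (median 211) to 3.02 to 88.3 FPKM at big flare (median 10.4). The step was -3.74 ± 0.70, adjusted p = 0.0066. The highest big flare libraries were middle big flare 2 at 88.3 and low big flare 1 at 79.5 FPKM, while the other 4 were at 14.4 or lower. A second peroxidase 72 match (Zm00001d008299) fell from 8.63 to 53.7 FPKM at jointing (median 16) to 0.28 to 11.7 FPKM at big flare (median 1.58) (-2.56 ± 0.55, adjusted p = 0.012). The peroxidase 47-like gene (Zm00001d035055) rose from 0.39 to 16.5 FPKM at jointing (median 3.28) to 12.8 to 124 FPKM at big flare (median 78.2) (3.84 ± 0.78, adjusted p = 0.0099). The peroxidase 50-like gene (Zm00001d005279) rose from 0 to 3.31 FPKM at jointing (median 0.36) to 3.18 to 16.1 FPKM at big flare (median 10.6) (2.64 ± 0.47, adjusted p = 0.0052).

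**Figure D2:**
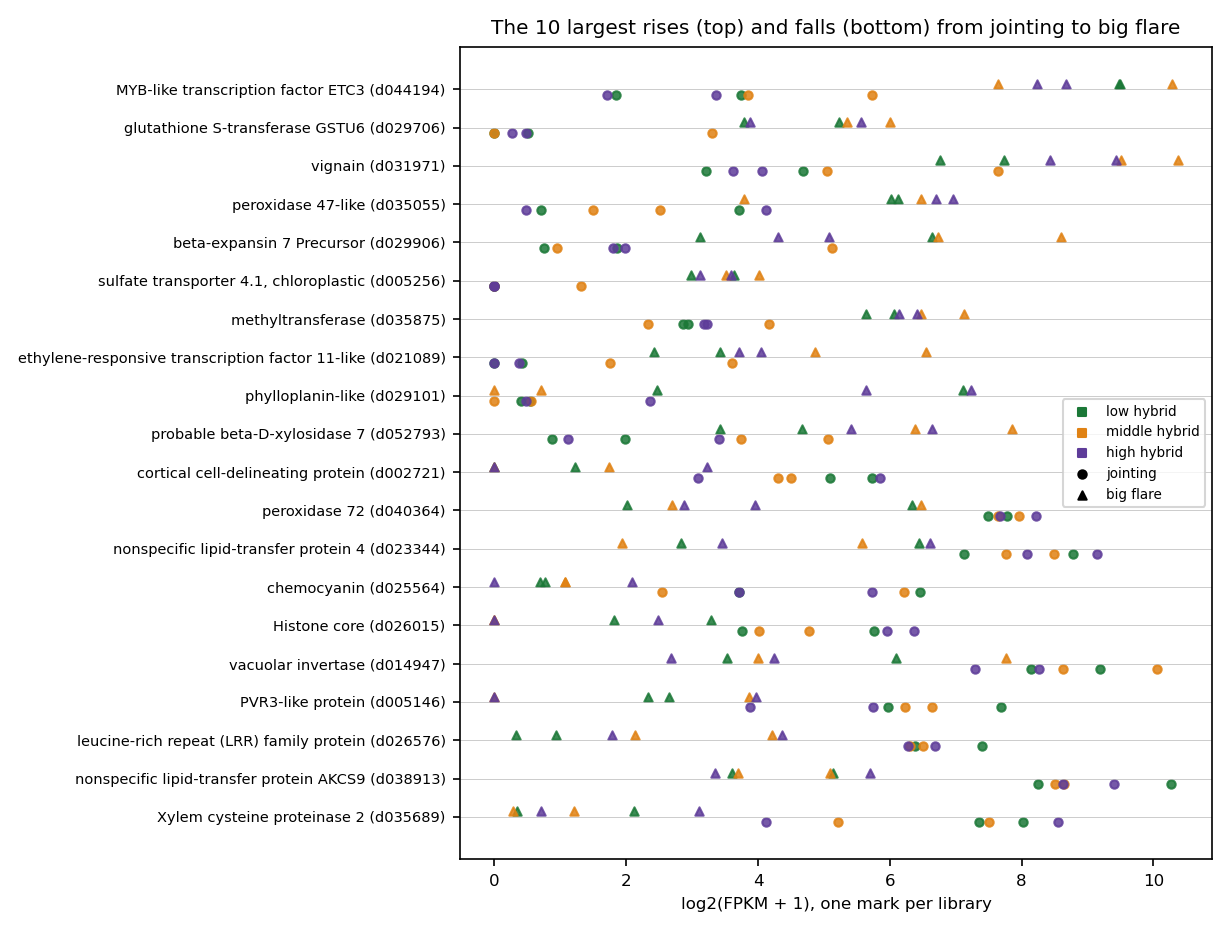
The 10 largest rises and the 10 largest falls among named genes, as log2(FPKM + 1) with 1 mark per library, jointing as circles and big flare as triangles, hybrids in colour. ETC3 has every big flare library above every jointing library, and xylem cysteine proteinase 2 has every one below.

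Aquaporins are membrane channels for water, with PIP proteins in the plasma membrane and TIP proteins in the vacuole membrane. Of 27 tested aquaporins 2 rose and 7 fell (7.41% and 25.9%, against 7.29% and 5.06% of all genes). With 1 library left out, 2 rose and 5 to 10 fell. In the other fits 2 rose and 11 fell with low jointing 2 and low big flare 1 both left out. Their summed level ran from 3741 to 7782 FPKM at jointing and from 1645 to 3133 at big flare, so no big flare library reached the lowest jointing library. PIP2-2 (Zm00001d005421) had 46 to 144 FPKM at jointing (median 115) and 14.3 to 42.6 FPKM at big flare (median 26.6), a step of -1.74 ± 0.31, adjusted p = 0.0049, without overlap. PIP1-3/PIP1-4 (Zm00001d051403) fell from 242 to 502 FPKM at jointing (median 318) to 63.3 to 264 FPKM at big flare (median 113) (-1.44 ± 0.25, adjusted p = 0.0046). TIP4-4 (Zm00001d039293) rose from 6.82 to 47.5 FPKM at jointing (median 17.8) to 44.4 to 93.4 FPKM at big flare (median 62.1) (1.71 ± 0.35, adjusted p = 0.01) and TIP4-2 (Zm00001d010410) from 0.55 to 3.07 FPKM at jointing (median 1.46) to 1.99 to 13.7 FPKM at big flare (median 5.38) (1.49 ± 0.31, adjusted p = 0.01).

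The vacuolar invertase gene Zm00001d014947, whose product splits sucrose in the vacuole, ranged from 156 to 1066 FPKM at jointing (median 351) and 5.41 to 216 FPKM at big flare (median 16.5), a step of -3.88 ± 0.65, adjusted p = 0.0039. Middle big flare 2, at 216, was the only big flare library above the lowest jointing library. At tasseling the same gene stood at 252 to 1631 FPKM. Across the 41 tested genes of sucrose metabolism and sugar transport 5 rose and 3 fell (12.2% and 7.32%, against 7.29% and 5.06% of all genes). When single libraries were dropped, 0 to 6 rose (0 omitting middle jointing 2, middle big flare 1 or high jointing 2, 1 omitting high big flare 2, 2 omitting low jointing 2, low big flare 2, middle big flare 2 or high big flare 1, 3 omitting low jointing 1) and 1 to 5 fell (1 omitting low big flare 2, middle big flare 1 or high big flare 2, 5 omitting low big flare 1). By other choices 3 rose and 3 fell with median-of-ratios scaling or an additive fit on the 12 libraries, 2 rose and 2 fell with a fit on the 12 libraries alone, and 3 rose and 4 fell with low jointing 2 and low big flare 1 both left out.

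Nitrogen moves through the stem as nitrate and amino acids. Of 45 tested genes for nitrogen and amino acid transport 9 rose and 2 fell (20% and 4.44%, against 7.29% and 5.06% of all genes). Under omission of 1 library, 5 to 10 rose (5 omitting middle jointing 2) and 0 to 5 fell (4 omitting low big flare 1, 5 omitting low jointing 2). With the processing changed, 8 rose and 4 fell with median-of-ratios scaling, and 7 rose and 6 fell with low jointing 2 and low big flare 1 both left out. Their summed level ran from 684 to 1079 FPKM at jointing and from 1297 to 1645 at big flare. A low affinity nitrate transporter gene (Zm00001d030235) rose from 32.5 to 42.7 FPKM at jointing (median 37.4) to 52 to 100.2 FPKM at big flare (median 74.4). The step was 0.94 ± 0.17, adjusted p = 0.0062, and the stages did not overlap. An amino acid permease 3-like gene (Zm00001d041842) had 0 to 16.9 FPKM at jointing (median 4.14) and 13.4 to 37.1 FPKM at big flare (median 25.5) (2.70 ± 0.55, adjusted p = 0.0098). The chloroplast-named sulfate transporter 4.1 gene (Zm00001d005256) was listed at 0 in 5 jointing libraries and at 1.49 FPKM in middle jointing 2, against 6.94 to 15.1 FPKM at big flare (median 10.7) (3.26 ± 0.59, adjusted p = 0.0059).

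**Figure D3:**
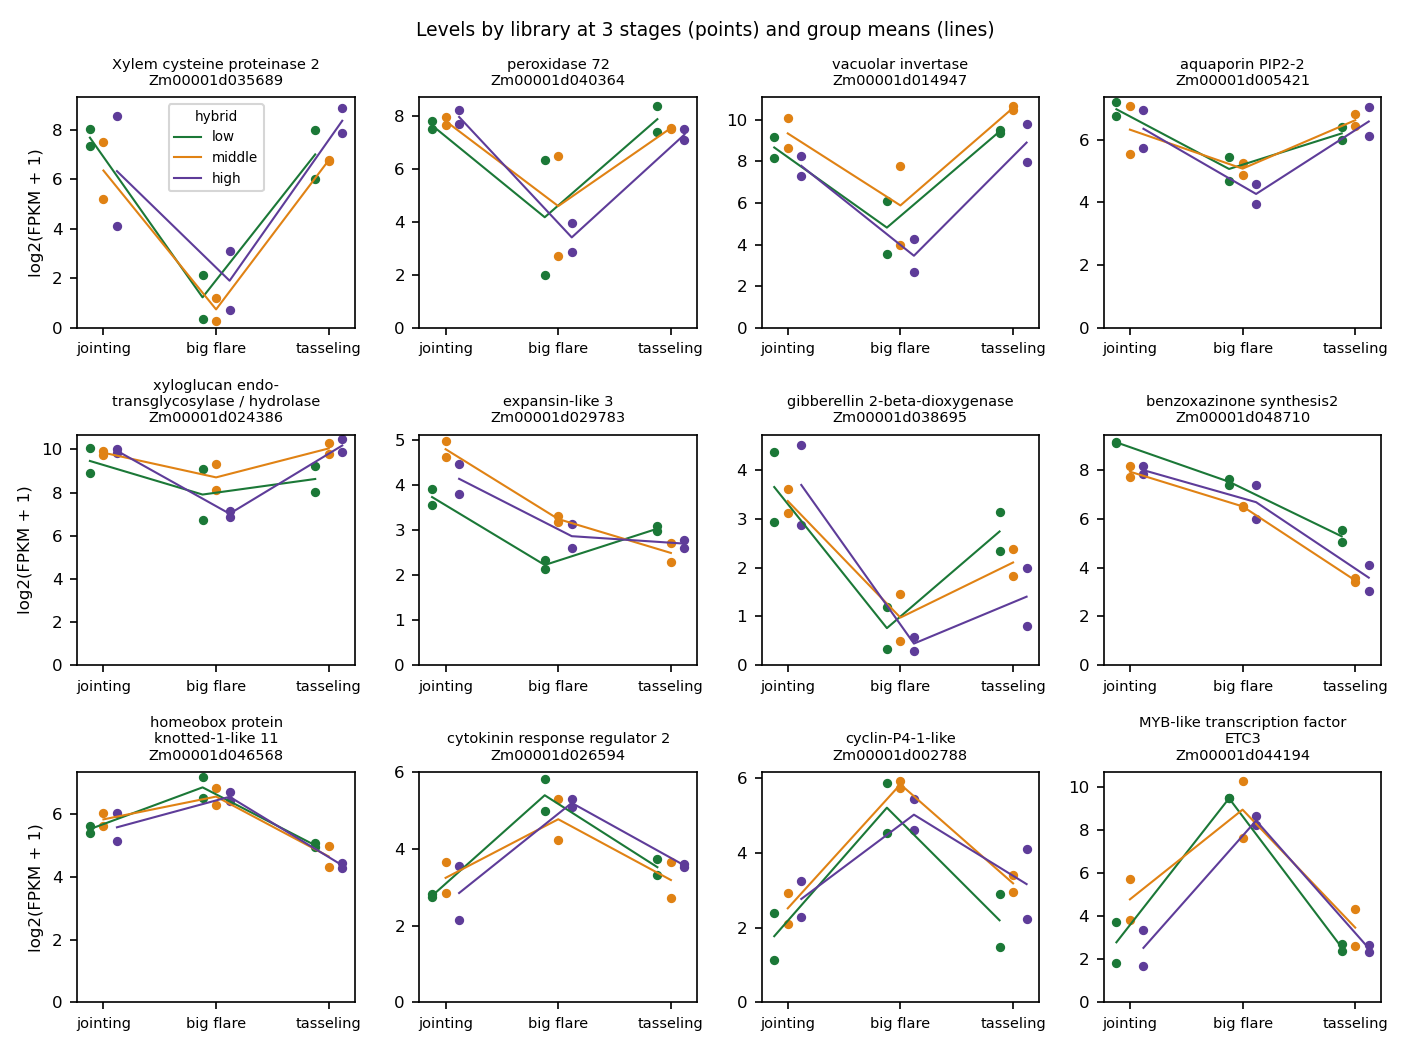
Levels of 12 genes by stage and hybrid, as log2(FPKM + 1), with a point per library and lines through group means; tasseling is drawn beside them for its levels only. Xylem cysteine proteinase 2, peroxidase 72, vacuolar invertase and PIP2-2 are lowest at big flare in each hybrid, and ETC3, cyclin-P4-1-like and cytokinin response regulator 2 are highest there. The 12 genes were chosen after values were seen, and the shape over the stages was not tested.

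KNOX factors keep meristem cells undifferentiated. Of the 12 genes 3 rose and none fell (25% and 0%, against 7.29% and 5.06% of all genes), and the summed level did not overlap between the stages. Across the 12 single-library omissions, 2 to 3 rose and none fell. The gene matching knotted-1-like 11 (Zm00001d046568) rose from 34 to 64.2 FPKM at jointing (median 48.1) to 77.1 to 144 FPKM at big flare (median 95.7). The step was 1.01 ± 0.20, adjusted p = 0.0082, and the stages did not overlap. A knotted-like family gene (Zm00001d033404) rose from 18 to 33.7 FPKM at jointing (median 25.6) to 33.5 to 78.3 FPKM at big flare (median 56.3) (1.07 ± 0.19, adjusted p = 0.0057). The OSH1 match (Zm00001d033859), named for the rice gene of the shoot meristem, was the most abundant of the 12, at 94.4 to 157 FPKM at jointing (median 102) and 135 to 204 FPKM at big flare (median 157), a step of 0.55 ± 0.13, adjusted p = 0.02. OSH1 lost its call without middle big flare 1 and with median-of-ratios scaling or low jointing 2 and low big flare 1 both left out (adjusted p up to 0.0659).

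The other 9 KNOX genes did not pass. Knotted-1 itself (Zm00001d035439), which maintains the shoot meristem, had 6.05 to 17.4 FPKM at jointing (median 12.1) and 12.2 to 19.6 FPKM at big flare (median 15.1) (0.41 ± 0.23, adjusted p = 0.26). Rough sheath 1 (Zm00001d007842), named for its leaf phenotype, had 27.4 to 57.1 FPKM at jointing (median 34.1) and 29.6 to 41 FPKM at big flare (median 36), with a step of -0.03 ± 0.24, adjusted p = 0.96. Liguleless 3 (Zm00001d040611) gave 0.00 ± 0.19, adjusted p = 1, and liguleless 4 (Zm00001d010948) 0.15 ± 0.22, adjusted p = 0.69. A KNOX1 domain gene (Zm00001d033861) had the one step below -0.5, at -0.75 ± 0.59, adjusted p = 0.43. The remaining 4, Zm00001d015549, HD1 (Zm00001d027431), knotted related homeobox 8 (Zm00001d034212) and Zm00001d053749, had steps from -0.05 to 0.37. The signs of 5 KNOX steps near 0 turned under some settings, as given in the closing section.

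Among 85 other homeobox genes 11 rose and 6 fell (12.9% and 7.06%, against 7.29% and 5.06% of all genes). On leaving out single libraries, 4 to 9 rose (4 omitting low jointing 2 or high big flare 2, 5 omitting low big flare 2, middle jointing 2 or high jointing 2, 6 omitting middle big flare 1 or high big flare 1) and 1 to 6 fell (1 omitting low big flare 2 or high big flare 1, 2 omitting middle big flare 1 or high big flare 2, 3 omitting low jointing 1, low jointing 2 or middle jointing 2). Among the other alternatives, 9 rose and 3 fell with no filter on low values, 10 rose and 1 fell with a fit on the 12 libraries alone, and 7 rose and 6 fell with low jointing 2 and low big flare 1 both left out. A POX domain homeobox gene of the BEL type (Zm00001d033898), whose products pair with KNOX proteins, rose from 13 to 19.4 FPKM at jointing (median 16.9) to 32.9 to 59.2 FPKM at big flare (median 39.1) (1.29 ± 0.16, adjusted p = 0.00095), without overlap. BEL1-related homeotic protein 14 (Zm00001d027435) rose from 1.19 to 3.31 FPKM at jointing (median 2.17) to 11.2 to 20.4 FPKM at big flare (median 14.2) (2.33 ± 0.36, adjusted p = 0.0029), also without overlap. Another BEL-type gene (Zm00001d046223) fell from 4.6 to 10.7 FPKM at jointing (median 8.07) to 0.53 to 4.64 FPKM at big flare (median 1.29) (-1.81 ± 0.26, adjusted p = 0.0021).

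MADS-box factors specify floral organs and the turn to flowering. Of 24 tested genes 10 rose and 1 fell (41.7% and 4.17%, against 7.29% and 5.06% of all genes), and the median step was 0.66. Over the 12 fits without 1 library, 3 to 11 rose (3 omitting low big flare 2, 4 omitting low jointing 2 or high big flare 2, 5 omitting middle jointing 2 or high jointing 2, 6 omitting middle big flare 1) and 1 fell. Under other settings 6 rose and 1 fell with a fit on the 12 libraries alone, and 5 rose and 1 fell with low jointing 2 and low big flare 1 both left out. Their summed level ran from 288 to 451 FPKM at jointing and from 482 to 697 at big flare. A MADS-box family gene (Zm00001d042315) rose from 6.22 to 10.4 FPKM at jointing (median 8.6) to 16 to 23.2 FPKM at big flare (median 20.3). The step was 1.14 ± 0.16, adjusted p = 0.002, and the stages did not overlap. Another (Zm00001d007949) rose from 0 to 5.98 FPKM at jointing (median 0.685) to 4.51 to 21.6 FPKM at big flare (median 8.26) (2.39 ± 0.40, adjusted p = 0.0038) and stood at 10.1 to 36.2 FPKM at tasseling. MADS1 (Zm00001d048474) was the member that fell, from 10.6 to 24 FPKM at jointing (median 16.5) to 2.1 to 11 FPKM at big flare (median 6.67) (-1.35 ± 0.31, adjusted p = 0.016). Whether inflorescence tissue had a part in these rises was not tested. Of 23 inflorescence regulators 3 rose and 2 fell (13% and 8.7%, against 7.29% and 5.06% of all genes). If any 1 library was omitted, 0 to 3 rose (0 omitting low big flare 2, 1 omitting middle jointing 2, middle big flare 1 or high big flare 2) and 0 to 3 fell. No fall passed without middle big flare 1, high jointing 2 or high big flare 1. The calls include a rise of ramosa 1 enhancer locus 2 (Zm00001d024523), a corepressor, from 52 to 89.8 FPKM at jointing (median 76) to 95.1 to 142 FPKM at big flare (median 114) (0.65 ± 0.15, adjusted p = 0.018). Ramosa 1 enhancer locus 2 lost its call without low big flare 2 or high big flare 2 (adjusted p up to 0.0557).

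The larger transcription factor families were called in both directions. Of 128 MYB genes 15 rose and 8 fell (11.7% and 6.25%, against 7.29% and 5.06% of all genes). Of 70 NAC genes 11 rose and 4 fell (15.7% and 5.71%, against 7.29% and 5.06% of all genes), and of 63 WRKY genes 5 rose and 5 fell (7.94% and 7.94%, against 7.29% and 5.06% of all genes). With 1 library left out, 7 to 17 MYB genes rose (7 omitting low big flare 2 or middle jointing 2, 8 omitting low jointing 2 or high jointing 2, 9 omitting middle big flare 1 or high big flare 2) and 3 to 12 fell (3 omitting middle big flare 1, 4 omitting middle jointing 2, 5 omitting low big flare 2 or high big flare 2). In the other fits 11 rose and 4 fell with a fit on the 12 libraries alone. When single libraries were dropped, 5 to 12 NAC genes rose (5 omitting middle jointing 2 or middle big flare 1, 6 omitting low big flare 2) and 3 to 6 fell. Under omission of 1 library, 1 to 5 WRKY genes rose (1 omitting middle big flare 1, 2 omitting low big flare 2, high jointing 1, high jointing 2 or high big flare 2, 3 omitting low jointing 1, low jointing 2, middle jointing 1 or middle jointing 2) and 2 to 5 fell (2 omitting low jointing 1, middle jointing 2, middle big flare 1, middle big flare 2, high big flare 1 or high big flare 2, 3 omitting low jointing 2, low big flare 2 or middle jointing 1). By other choices 2 rose and 5 fell with median-of-ratios scaling, 3 rose and 5 fell with a pseudocount of 0.1, 3 rose and 3 fell with no filter on low values, 2 rose and 2 fell with a fit on the 12 libraries alone, 3 rose and 2 fell with an additive fit on the 12 libraries, and 3 rose and 6 fell with low jointing 2 and low big flare 1 both left out. The MYB-like gene ETC3 (Zm00001d044194), whose relatives act in hair cell fate in the Arabidopsis epidermis, made the largest rise of the rule. It went from 2.28 to 52.1 FPKM at jointing (median 10.8) to 198 to 1246 FPKM at big flare (median 562). The step was 5.59 ± 0.52, adjusted p = 0.00029. Every big flare library exceeded every jointing library, and at tasseling the level was 4.09 to 19 FPKM. Another MYB gene (Zm00001d008528) rose from 0 to 1.4 FPKM at jointing (median 0.335) to 2.08 to 14.9 FPKM at big flare (median 4.42) (2.23 ± 0.24, adjusted p = 0.00047). A TaMYB1 match (Zm00001d046632) fell from 21.8 to 49.4 FPKM at jointing (median 36.8) to 1.38 to 18.2 FPKM at big flare (median 4.9) (-2.62 ± 0.40, adjusted p = 0.0029), without overlap. A NAC gene with no closer name (Zm00001d003052) rose from 0.15 to 3.39 FPKM at jointing (median 1.51) to 5.19 to 25.7 FPKM at big flare (median 10.3) (2.29 ± 0.29, adjusted p = 0.001). The NAC 21/22-like gene (Zm00001d024268), of a type that carries auxin signals in Arabidopsis roots, rose from 1.45 to 5.96 FPKM at jointing (median 2.74) to 11.2 to 21.1 FPKM at big flare (median 14.3) (2.00 ± 0.24, adjusted p = 0.0009). A WRKY gene (Zm00001d012746) rose from 2.88 to 8.43 FPKM at jointing (median 5.6) to 16.7 to 46.9 FPKM at big flare (median 28.2) (2.23 ± 0.23, adjusted p = 0.00047), and all 3 of these factors were separated between stages. WRKY 53 (Zm00001d005622), a regulator of leaf senescence in Arabidopsis, fell from 2.35 to 20.4 FPKM at jointing (median 9.11) to 0.74 to 3.53 FPKM at big flare (median 2.67) (-1.52 ± 0.32, adjusted p = 0.011).

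**Figure D4:**
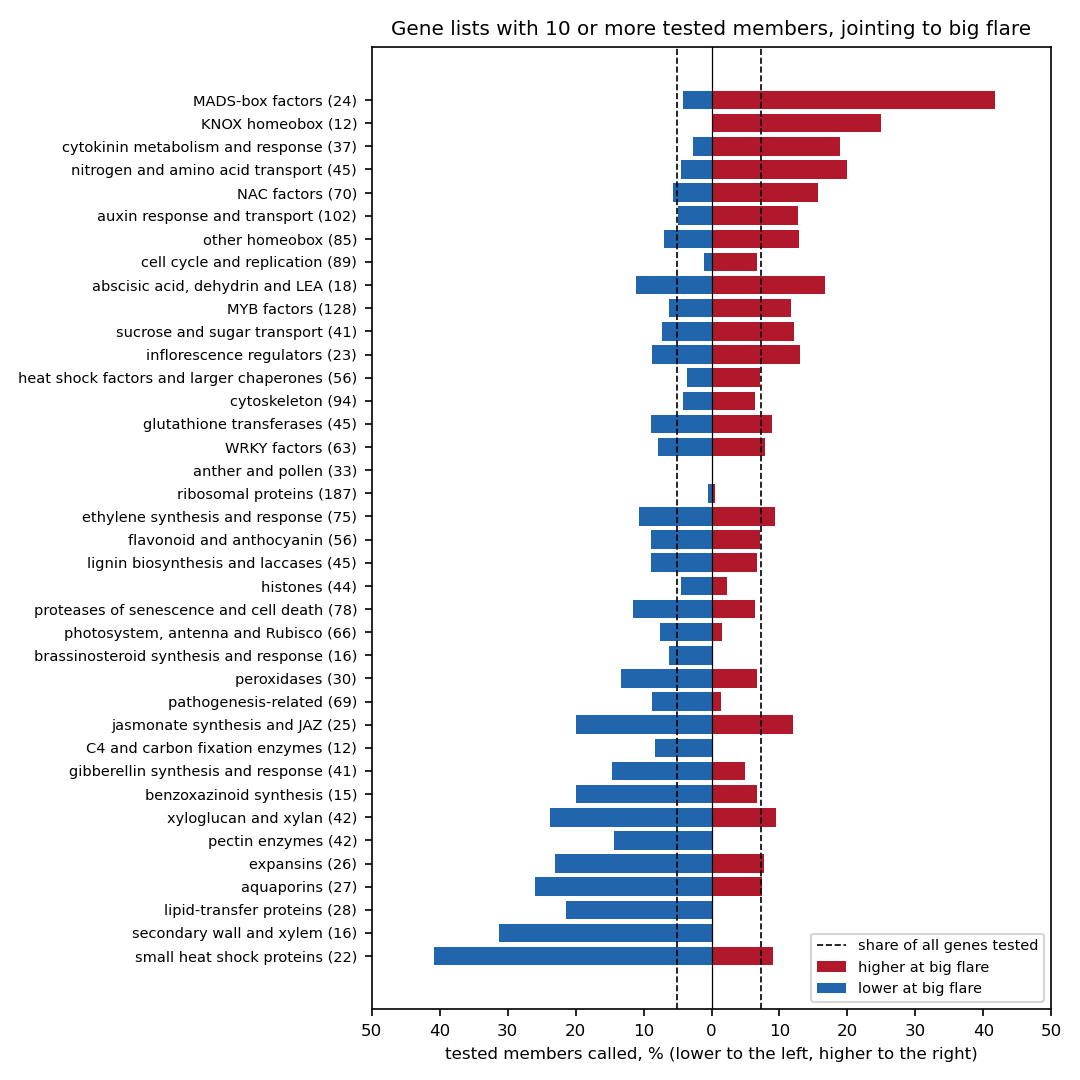
Share of tested members that rose (right) or fell (left) at an adjusted p below 0.05, for the gene lists with 10 or more tested members; the number tested is in brackets and dashed lines mark the shares over all genes, 7.29% and 5.06%. Of the MADS-box factors 41.7% rose, and of the small heat shock proteins 40.9% fell.

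Of 89 tested genes of the cell cycle and replication 6 rose and 1 fell (6.74% and 1.12%, against 7.29% and 5.06% of all genes), and their summed level overlapped between stages. Across the 12 single-library omissions, 4 to 6 rose and 0 to 3 fell (3 omitting low big flare 1). With the processing changed, 5 rose and 2 fell with median-of-ratios scaling. A cyclin-P4-1-like gene (Zm00001d002788), of the P-type cyclins, rose from 1.21 to 8.49 FPKM at jointing (median 4.08) to 22.3 to 59.7 FPKM at big flare (median 47.4). The step was 3.0 ± 0.41, adjusted p = 0.0015, and the stages did not overlap. Cyclin delta-2 (Zm00001d020772), of the D-type cyclins that open the cell cycle, fell from 1.39 to 18.9 FPKM at jointing (median 2.27) to 0 to 0.88 FPKM at big flare (median 0.1) (-1.99 ± 0.48, adjusted p = 0.02). Cyclin delta-2 lost its call without low big flare 2, middle big flare 1, high jointing 2 or high big flare 2 (adjusted p up to 0.0621). Of 44 histone genes 1 rose and 2 fell (2.27% and 4.54%, against 7.29% and 5.06% of all genes), and reads of near-identical histone copies may be split between genes. On leaving out single libraries, 0 to 6 histone genes rose (6 omitting high jointing 2) and 1 to 4 fell (4 omitting low jointing 2 or high jointing 1). Among the other alternatives, 3 rose and 1 fell with an additive fit on the 12 libraries, and 1 rose and 4 fell with low jointing 2 and low big flare 1 both left out. A gene named only as a histone core (Zm00001d026015) was outside that list and fell from 12.5 to 81.6 FPKM at jointing (median 39.6) to 0 to 8.75 FPKM at big flare (median 1.25) (-3.84 ± 0.51, adjusted p = 0.0014).

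Ribosomal protein genes gave few calls, and their number depended on the model. Of 187 tested members 142 had a step above 0, with a median of 0.23 (0.10 after median-of-ratios scaling). Over all genes the median step was itself 0.07 (-0.02 after that scaling), and the share of all genes above 0 was not counted. Of the members 1 rose and 1 fell (0.535% and 0.535%, against 7.29% and 5.06% of all genes). Over the 12 fits without 1 library, 0 to 4 rose (4 omitting low big flare 1 or middle jointing 1) and 1 fell. Under other settings 3 rose and 1 fell with quantile normalization, 7 rose and 1 fell with a fit on the 12 libraries alone, and 18 rose and 1 fell with an additive fit on the 12 libraries. The gene that fell was 60S L18A (Zm00001d039619), from 11 to 34.4 FPKM at jointing (median 17.5) to 0 to 5.07 FPKM at big flare (median 3.92) (-2.48 ± 0.43, adjusted p = 0.0046). The gene that rose was 60S L31 (Zm00001d031429), from 240.3 to 421 FPKM at jointing (median 386) to 483 to 913 FPKM at big flare (median 654) (0.98 ± 0.24, adjusted p = 0.022). 60S L31 lost its call without low jointing 2, low big flare 2, middle jointing 2, middle big flare 1 or high big flare 2 and with low jointing 2 and low big flare 1 both left out (adjusted p up to 0.0689).

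Of 94 cytoskeleton genes 6 rose and 4 fell (6.38% and 4.25%, against 7.29% and 5.06% of all genes). If any 1 library was omitted, 2 to 7 rose (2 omitting middle jointing 2, middle big flare 1 or high big flare 2, 3 omitting low big flare 2 or middle jointing 1) and 3 to 9 fell (9 omitting low big flare 1). In the other fits 2 rose and 4 fell with median-of-ratios scaling, and 4 rose and 7 fell with low jointing 2 and low big flare 1 both left out. A pair of kinesin-4-like genes, of motors that move along microtubules, fell without overlap. The first, Zm00001d047677, went from 3.34 to 6.49 FPKM at jointing (median 5.4) to 1.22 to 2.57 FPKM at big flare (median 2.04) (-1.08 ± 0.19, adjusted p = 0.0057). The other, Zm00001d028830, went from 7.13 to 18.1 FPKM at jointing (median 11.4) to 1 to 6.42 FPKM at big flare (median 2.69) (-1.58 ± 0.31, adjusted p = 0.0078). Tubulin beta-7 (Zm00001d013139), a microtubule subunit, rose from 44.3 to 77 FPKM at jointing (median 53) to 70.4 to 120.1 FPKM at big flare (median 86.5) (0.71 ± 0.15, adjusted p = 0.012). Tubulin beta-7 lost its call with median-of-ratios scaling (adjusted p up to 0.0615).

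Hormone genes changed in both directions. Of 37 tested cytokinin genes 7 rose and 1 fell (18.9% and 2.7%, against 7.29% and 5.06% of all genes), and their summed level ran from 151 to 228 FPKM at jointing and from 238 to 331 at big flare. With 1 library left out, 4 to 8 rose (4 omitting middle big flare 1) and 0 to 2 fell. Cytokinin response regulator 2 (Zm00001d026594), of the receiver proteins that relay the signal, rose from 3.4 to 11.6 FPKM at jointing (median 6.08) to 17.9 to 55.4 FPKM at big flare (median 35.7) (2.16 ± 0.29, adjusted p = 0.0015), without overlap. The ARR9 match (Zm00001d011849) rose from 2.88 to 6.81 FPKM at jointing (median 4.48) to 5.93 to 17.3 FPKM at big flare (median 14.1) (1.31 ± 0.22, adjusted p = 0.0044), and high big flare 1, its lowest library of the stage, lay within the jointing range. Cytokinin-N-glucosyltransferase 1 (Zm00001d032866), which inactivates the hormone, fell from 4.26 to 18.6 FPKM at jointing (median 11.8) to 0.47 to 4.32 FPKM at big flare (median 2.96) (-1.68 ± 0.39, adjusted p = 0.017). The glucosyltransferase gene lost its call without low big flare 2 (adjusted p up to 0.0556).

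Of 102 auxin genes 13 rose and 5 fell (12.8% and 4.9%, against 7.29% and 5.06% of all genes), and the summed level ran from 2879 to 3052 FPKM at jointing and from 3196 to 3941 at big flare. When single libraries were dropped, 7 to 13 rose (7 omitting middle big flare 1, 8 omitting middle jointing 2) and 3 to 6 fell (3 omitting low jointing 1, low big flare 2, middle jointing 2, middle big flare 1, high jointing 1 or high big flare 1). By other choices 10 rose and 8 fell with median-of-ratios scaling, 10 rose and 3 fell with no filter on low values, and 8 rose and 6 fell with low jointing 2 and low big flare 1 both left out. An IAA4-like gene (Zm00001d040541), of the repressors that auxin removes, rose from 0.73 to 7.51 FPKM at jointing (median 3.88) to 8.13 to 27.8 FPKM at big flare (median 19.9) (2.10 ± 0.33, adjusted p = 0.0031). Auxin response factor 2 (Zm00001d032683), of the factors those repressors bind, rose from 7.51 to 11.6 FPKM at jointing (median 8.29) to 14.6 to 32.7 FPKM at big flare (median 17.4) (1.04 ± 0.20, adjusted p = 0.0078). An auxin-induced in root cultures 12-like gene (Zm00001d049786) fell from 31 to 57.6 FPKM at jointing (median 38.6) to 7.02 to 27.6 FPKM at big flare (median 13.7) (-1.57 ± 0.25, adjusted p = 0.0031). None of these 3 overlapped between stages.

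Of 41 tested gibberellin genes 2 rose and 6 fell (4.88% and 14.6%, against 7.29% and 5.06% of all genes). Under omission of 1 library, 1 to 2 rose and 5 to 9 fell. With the processing changed, 1 rose and 6 fell with median-of-ratios scaling. The falls included a pair of gibberellin 2-beta-dioxygenases, enzymes that inactivate the hormone. The first (Zm00001d038695) fell from 6.34 to 21.9 FPKM at jointing (median 9.46) to 0.23 to 1.76 FPKM at big flare (median 0.45). The step was -2.85 ± 0.38, adjusted p = 0.0014. The other (Zm00001d037724) fell from 2.24 to 38.2 FPKM at jointing (median 13.1) to 0 to 1.22 FPKM at big flare (median 0.51). The step was -3.03 ± 0.59, adjusted p = 0.008. In both, every big flare library lay below every jointing library. The other 3 genes of this kind did not pass: gibberellin 2-oxidase (Zm00001d037565) gave -0.82 ± 0.42, adjusted p = 0.22, Zm00001d008909 gave -0.92 ± 0.73, adjusted p = 0.43 and Zm00001d012712, which did not pass 1.48 FPKM in any library of either stage, gave -0.09 ± 0.30, adjusted p = 0.88.

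Gibberellin 20-oxidases, which make the precursors of active gibberellin, gave no call among 5 tested genes. Over all genes 7.29% rose and 5.06% fell. The gene Zm00001d029744 had 1.39 to 40.1 FPKM at jointing (median 4.64) and 2.61 to 12.3 FPKM at big flare (median 4.51), with a step of -0.27 ± 0.59, adjusted p = 0.8. High jointing 1 set its upper end at jointing, and it stood at 12.6 to 69.3 FPKM at tasseling. A second 20-oxidase 2 gene (Zm00001d032223) had 2 to 9.88 FPKM at jointing (median 5.71) and 4.01 to 9.29 FPKM at big flare (median 7.16) (0.27 ± 0.27, adjusted p = 0.54). The steps of Zm00001d002101, Zm00001d034898 and Zm00001d049926 were 0.36, -0.23 and 0.07, and their levels did not pass 12.9 FPKM at either stage. Downstream, gibberellin-regulated protein 1 (Zm00001d033369), a small cysteine-rich protein, fell from 161 to 666 FPKM at jointing (median 368) to 33.7 to 152 FPKM at big flare (median 85.4) (-2.30 ± 0.43, adjusted p = 0.0065), without overlap. The GID1L2 match (Zm00001d020741), a gibberellin receptor by name only, rose from 8.77 to 22.8 FPKM at jointing (median 12.2) to 17.8 to 26.3 FPKM at big flare (median 22.3) (0.69 ± 0.19, adjusted p = 0.035). GID1L2 lost its call under 9 of the 12 single-library omissions (all but those of low jointing 1, middle jointing 1 and middle big flare 2) and with median-of-ratios scaling, a fit on the 12 libraries alone or low jointing 2 and low big flare 1 both left out (adjusted p up to 0.134). Of 16 brassinosteroid genes none rose and 1 fell (0% and 6.25%, against 7.29% and 5.06% of all genes). Across the 12 single-library omissions, none rose and 0 to 3 fell (3 omitting low big flare 1). The called gene was CYP90A22v2 (Zm00001d004957), a cytochrome P450 of a family that makes the hormone, at 5.46 to 20.3 FPKM at jointing (median 12.7) and 1.04 to 9.59 FPKM at big flare (median 4.74) (-1.36 ± 0.41, adjusted p = 0.0498). CYP90A22v2 lost its call under 9 of the 12 single-library omissions (all but those of low big flare 1, middle big flare 2 and high jointing 1) and with a pseudocount of 0.1, no filter on low values, a fit on the 12 libraries alone, the replicate number as a block or an additive fit on the 12 libraries (adjusted p up to 0.143).

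Jasmonate and ethylene genes were called in both directions. Of 25 jasmonate genes 3 rose and 5 fell (12% and 20%, against 7.29% and 5.06% of all genes). On leaving out single libraries, 0 to 2 rose (0 omitting middle jointing 2, middle big flare 2, high jointing 2 or high big flare 2, 1 omitting low jointing 1, low big flare 2 or middle big flare 1) and 2 to 10 fell (2 omitting middle jointing 2, middle big flare 1 or high jointing 2, 3 omitting low big flare 2 or high big flare 1, 10 omitting low big flare 1). Among the other alternatives, 1 rose and 6 fell with median-of-ratios scaling, 2 rose and 6 fell with quantile normalization, 1 rose and 3 fell with a fit on the 12 libraries alone, and 3 rose and 8 fell with low jointing 2 and low big flare 1 both left out. Allene oxide synthase 1 (Zm00001d013185), an early enzyme of jasmonate synthesis, fell from 14.8 to 26.3 FPKM at jointing (median 17.6) to 4.99 to 11 FPKM at big flare (median 6.58) (-1.29 ± 0.19, adjusted p = 0.0021), without overlap. A lipoxygenase gene (Zm00001d033624), of the step before it, fell from 8.67 to 56.4 FPKM at jointing (median 15) to 2.43 to 9.77 FPKM at big flare (median 4.46) (-1.63 ± 0.34, adjusted p = 0.011). A pair of allene oxide cyclase genes, of the step after it, rose. The first (Zm00001d047340) had 23.1 to 45.4 FPKM at jointing (median 29.8) and 42.6 to 55.9 FPKM at big flare (median 49.7) (0.64 ± 0.17, adjusted p = 0.029). The other (Zm00001d029594) had 60.5 to 119 FPKM at jointing (median 90.7) and 93.8 to 186 FPKM at big flare (median 137) (0.65 ± 0.18, adjusted p = 0.039). The first call was lost under 7 of the 12 single-library omissions (all but those of low jointing 2, low big flare 2, middle jointing 1, high jointing 1 and high big flare 1) and with median-of-ratios scaling (adjusted p up to 0.104), and the other under 10 of the 12 single-library omissions (all but those of low jointing 2 and low big flare 1) and with median-of-ratios scaling, quantile normalization or a fit on the 12 libraries alone (adjusted p up to 0.139). Of 75 ethylene genes 7 rose and 8 fell (9.33% and 10.7%, against 7.29% and 5.06% of all genes). Over the 12 fits without 1 library, 2 to 4 rose (2 omitting middle jointing 2, middle big flare 1 or high big flare 2, 3 omitting low big flare 2, high jointing 1 or high jointing 2, 4 omitting low jointing 1, low jointing 2, low big flare 1, middle jointing 1, middle big flare 2 or high big flare 1) and 4 to 12 fell (4 omitting low big flare 2 or middle big flare 1, 5 omitting middle jointing 2). Under other settings 4 rose and 14 fell with median-of-ratios scaling, 5 rose and 11 fell with quantile normalization, 4 rose and 6 fell with no filter on low values, 2 rose and 7 fell with a fit on the 12 libraries alone, and 4 rose and 10 fell with low jointing 2 and low big flare 1 both left out. The ERF039-like factor (Zm00001d017480) fell from 7.81 to 24.3 FPKM at jointing (median 13.8) to 0.67 to 6.15 FPKM at big flare (median 2.31) (-2.03 ± 0.31, adjusted p = 0.0026). The ethylene-responsive factor 11-like gene (Zm00001d021089) rose from 0 to 11.1 FPKM at jointing (median 0.31) to 4.36 to 92.7 FPKM at big flare (median 13.8) (3.15 ± 0.53, adjusted p = 0.0042). Of 18 abscisic acid, dehydrin and LEA genes 3 rose and 2 fell (16.7% and 11.1%, against 7.29% and 5.06% of all genes). If any 1 library was omitted, 0 to 4 rose (0 omitting low big flare 2, middle jointing 2 or high big flare 2, 1 omitting low jointing 1, middle big flare 1, middle big flare 2 or high jointing 2) and 1 to 2 fell. In the other fits 1 rose and 2 fell with a pseudocount of 0.1 or an additive fit on the 12 libraries, 0 rose and 1 fell with a fit on the 12 libraries alone, and 1 rose and 3 fell with low jointing 2 and low big flare 1 both left out. An ABA-responsive protein gene (Zm00001d023664) fell from 28.4 to 143 FPKM at jointing (median 72.3) to 13.2 to 48.3 FPKM at big flare (median 17.5) (-1.75 ± 0.39, adjusted p = 0.014).

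Small heat shock proteins are chaperones that hold unfolding proteins. Of 22 tested genes 2 rose and 9 fell (9.09% and 40.9%, against 7.29% and 5.06% of all genes). In 5 of the 22 every big flare library lay below every jointing library, against 1.49% of all genes. With 1 library left out, 1 to 2 rose and 7 to 13 fell. Their summed level ran from 2045 to 5468 FPKM at jointing and from 1030 to 1779 at big flare. The 17.5 kDa class II gene (Zm00001d039566) fell from 360.5 to 1362 FPKM at jointing (median 896) to 84 to 316 FPKM at big flare (median 217) (-2.05 ± 0.29, adjusted p = 0.0018). The 16.9 kDa class I gene (Zm00001d039935) fell from 162 to 603 FPKM at jointing (median 312) to 26.3 to 88.6 FPKM at big flare (median 41.9) (-2.71 ± 0.42, adjusted p = 0.0029). The 18.8 kDa class V gene (Zm00001d021634) rose from 0 to 7.27 FPKM at jointing (median 1.84) to 3.22 to 32.3 FPKM at big flare (median 13) (2.37 ± 0.41, adjusted p = 0.0048). Reads of near-identical copies of these genes may be split. The labels give neither temperature nor hour of sampling, and their part in these falls was not tested.

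Among 56 heat shock factors and larger chaperones 4 rose and 2 fell (7.14% and 3.57%, against 7.29% and 5.06% of all genes). When single libraries were dropped, 2 to 5 rose (2 omitting low big flare 2, middle jointing 2, middle big flare 1 or high jointing 2) and 2 to 3 fell. Heat shock factor 4 (Zm00001d020714) rose from 0.29 to 1.59 FPKM at jointing (median 0.88) to 4.18 to 10.4 FPKM at big flare (median 6.04) (1.95 ± 0.23, adjusted p = 0.00079), without overlap. A heat shock 70 kDa protein-like gene (Zm00001d042922) fell from 61 to 253 FPKM at jointing (median 186) to 17.3 to 65.6 FPKM at big flare (median 43.9) (-2.03 ± 0.35, adjusted p = 0.0044). Heat shock protein 82 (Zm00001d024903), of the HSP90 family, fell from 19 to 99.3 FPKM at jointing (median 33.8) to 0.39 to 9.06 FPKM at big flare (median 1.75) (-3.65 ± 0.49, adjusted p = 0.0015), also without overlap.

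Of 28 lipid-transfer proteins, which carry lipids to the cuticle, none rose and 6 fell (0% and 21.4%, against 7.29% and 5.06% of all genes), with a median step of -0.98. Under omission of 1 library, 0 to 1 rose and 4 to 9 fell. By other choices 0 rose and 12 fell with low jointing 2 and low big flare 1 both left out. AKCS9 (Zm00001d038913) fell from 304 to 1232 FPKM at jointing (median 397) to 9.2 to 50.8 FPKM at big flare (median 22.6). The step was -4.52 ± 0.49, adjusted p = 0.00047. Lipid-transfer protein 4 (Zm00001d023344) fell from 139 to 566 FPKM at jointing (median 315) to 2.83 to 96.5 FPKM at big flare (median 28.4). The step was -3.76 ± 0.79, adjusted p = 0.011, and the gene stood at 643 to 4036 FPKM at tasseling. A bifunctional inhibitor family gene (Zm00001d019100) fell from 77.1 to 199 FPKM at jointing (median 107) to 18.8 to 71.5 FPKM at big flare (median 46.7) (-1.49 ± 0.17, adjusted p = 0.00058). None of the 3 overlapped between stages.

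Of 69 pathogenesis-related genes 1 rose and 6 fell (1.45% and 8.7%, against 7.29% and 5.06% of all genes). Across the 12 single-library omissions, 0 to 2 rose and 3 to 10 fell (3 omitting low big flare 2, middle jointing 2 or middle big flare 1, 10 omitting low big flare 1). With the processing changed, 0 rose and 8 fell with median-of-ratios scaling, and 1 rose and 10 fell with low jointing 2 and low big flare 1 both left out. Glucan endo-1,3-beta-glucosidase 3 (Zm00001d022059), which cuts callose, fell from 29 to 103 FPKM at jointing (median 67.7) to 3.89 to 25.1 FPKM at big flare (median 12.5) (-2.29 ± 0.38, adjusted p = 0.0037). Of 15 benzoxazinoid genes, which make the main defence compounds of young maize, 1 rose and 3 fell (6.67% and 20%, against 7.29% and 5.06% of all genes). On leaving out single libraries, 0 to 2 rose and 2 to 5 fell (5 omitting low jointing 2). Among the other alternatives, 1 rose and 5 fell with median-of-ratios scaling. Benzoxazinone synthesis2 (Zm00001d048710), a cytochrome P450, fell from 210.2 to 573 FPKM at jointing (median 288) to 62.8 to 200.03 FPKM at big flare (median 129.6) (-1.45 ± 0.24, adjusted p = 0.0039), without overlap, and stood at 7.34 to 45.4 FPKM at tasseling. BX9 (Zm00001d031209), which adds glucose to the product, fell from 65.2 to 108 FPKM at jointing (median 76.1) to 28.6 to 72.7 FPKM at big flare (median 46.7) (-0.78 ± 0.17, adjusted p = 0.012). Of 56 flavonoid genes 4 rose and 5 fell (7.14% and 8.93%, against 7.29% and 5.06% of all genes). Over the 12 fits without 1 library, 2 to 6 rose (2 omitting middle jointing 2 or high big flare 1) and 2 to 8 fell (2 omitting middle jointing 2, middle big flare 1 or high big flare 1, 3 omitting low jointing 2, low big flare 2, middle jointing 1 or high big flare 2, 8 omitting low big flare 1). Under other settings 3 rose and 6 fell with median-of-ratios scaling, 5 rose and 3 fell with a fit on the 12 libraries alone, and 5 rose and 9 fell with low jointing 2 and low big flare 1 both left out. Metallothionein-like protein 2A (Zm00001d039914), a metal-binding protein, fell from 62.5 to 782 FPKM at jointing (median 93.6) to 19.2 to 287 FPKM at big flare (median 23.6) (-1.87 ± 0.28, adjusted p = 0.0024).

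Glutathione transferases, which attach glutathione to reactive compounds, were called in both directions. Of 45 tested genes 4 rose and 4 fell (8.89% and 8.89%, against 7.29% and 5.06% of all genes), and the summed level ran from 1966 to 3424 FPKM at jointing and from 1221 to 1708 at big flare. If any 1 library was omitted, 3 to 5 rose and 1 to 6 fell (1 omitting middle big flare 1 or high big flare 1, 2 omitting low jointing 2, low big flare 2, middle jointing 2 or high big flare 2). The most abundant member was glutathione S-transferase 1 (Zm00001d012675), which fell from 1221 to 2709.8 FPKM at jointing (median 1976) to 677 to 1035 FPKM at big flare (median 724) (-1.25 ± 0.26, adjusted p = 0.011). GSTU6 (Zm00001d029706) rose from 0 to 8.87 FPKM at jointing (median 0.3) to 12.8 to 63.2 FPKM at big flare (median 38.1). The step was 4.21 ± 0.56, adjusted p = 0.0014. The gene Zm00001d036951 rose from 1.41 to 9.88 FPKM at jointing (median 6.97) to 30.4 to 85.5 FPKM at big flare (median 45.2) (2.86 ± 0.34, adjusted p = 0.00084). Neither overlapped between stages.

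Proteases of senescence and cell death included xylem cysteine proteinase 2. Of 78 tested genes 5 rose and 9 fell (6.41% and 11.5%, against 7.29% and 5.06% of all genes). With 1 library left out, 5 to 7 rose and 3 to 11 fell (3 omitting middle big flare 1, 4 omitting low big flare 2, 5 omitting high big flare 1). In the other fits 5 rose and 5 fell with a fit on the 12 libraries alone, and 8 rose and 6 fell with an additive fit on the 12 libraries. Vignain (Zm00001d031971), a cysteine endopeptidase, rose from 8.25 to 199 FPKM at jointing (median 20.2) to 108 to 1324 FPKM at big flare (median 516). The step was 3.99 ± 0.58, adjusted p = 0.0021. Middle jointing 1, at 199, was the jointing library within the big flare range. A legumain gene (Zm00001d011174), of the vacuolar processing enzymes, rose from 33.9 to 60.7 FPKM at jointing (median 45.2) to 56.9 to 81 FPKM at big flare (median 76.4) (0.73 ± 0.13, adjusted p = 0.0046).

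Most photosynthesis genes had a step below 0, and few passed. Of 66 photosystem, antenna and Rubisco genes 1 rose and 5 fell (1.51% and 7.58%, against 7.29% and 5.06% of all genes). In all, 13 had a step above 0 and the median was -0.38, against a median of 0.07 over all genes. The share of all genes above 0 was not counted. When single libraries were dropped, 1 rose and 1 to 9 fell (1 omitting high jointing 1 or high big flare 2, 2 omitting low big flare 2, middle jointing 2, middle big flare 1 or middle big flare 2, 3 omitting low jointing 2, low big flare 1 or high jointing 2, 9 omitting low jointing 1). By other choices 1 rose and 3 fell with median-of-ratios scaling or a pseudocount of 0.1, 1 rose and 2 fell with no filter on low values or the replicate number as a block, 1 rose and 1 fell with a fit on the 12 libraries alone, 0 rose and 2 fell with an additive fit on the 12 libraries, and 2 rose and 1 fell with low jointing 2 and low big flare 1 both left out. An oxygen-evolving complex gene (Zm00001d027422), of photosystem II, had 5.43 to 18.6 FPKM at jointing (median 14.5) and at most 11.8 FPKM at big flare (median 4). Its step was -1.41 ± 0.25, adjusted p = 0.0048. The Rubisco small subunit gene Zm00001d052595 fell from 381 to 1884 FPKM at jointing (median 1114) to 188 to 533 FPKM at big flare (median 381) (-1.60 ± 0.40, adjusted p = 0.022). The Rubisco gene lost its call without middle jointing 2, middle big flare 1, high jointing 1 or high big flare 2 and with a fit on the 12 libraries alone or low jointing 2 and low big flare 1 both left out (adjusted p up to 0.0695). A phosphoenolpyruvate carboxylase gene (Zm00001d016166), of the enzyme that first fixes carbon in C4 leaves, fell from 29.5 to 69.9 FPKM at jointing (median 48.3) to 12.9 to 27.3 FPKM at big flare (median 20) (-1.23 ± 0.20, adjusted p = 0.0035), without overlap, and was the one call among 12 C4 and carbon fixation genes (8.33% lower, against 5.06%).

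The remaining genes among the 10 largest rises and falls belong to no list. A methyltransferase gene (Zm00001d035875), whose substrate is not named, had the smallest adjusted p of the named genes and rose from 4.01 to 16.9 FPKM at jointing (median 7.38) to 48.6 to 139 FPKM at big flare (median 76.8). The step was 3.19 ± 0.26, adjusted p = 0.00014. A phylloplanin-like gene (Zm00001d029101), named for a leaf surface protein of tobacco, rose by 3.14 ± 0.68, adjusted p = 0.013, at 0 to 4.13 FPKM at jointing (median 0.425) and 0 to 149.6 FPKM at big flare (median 26.7). Its big flare levels were 0.63 and 0 FPKM in the middle hybrid, 4.53 and 138 in the low and 48.8 and 149.6 in the high hybrid. The phylloplanin-like gene lost its call with an additive fit on the 12 libraries (adjusted p up to 0.0542). A leucine-rich repeat family gene (Zm00001d026576) fell from 76.2 to 167 FPKM at jointing (median 86.1) to 0.26 to 19.5 FPKM at big flare (median 2.9) (-4.30 ± 0.82, adjusted p = 0.0072). Chemocyanin (Zm00001d025564), a small copper protein, fell from 4.83 to 87.1 FPKM at jointing (median 32) to 0 to 3.27 FPKM at big flare (median 0.91) (-3.78 ± 0.72, adjusted p = 0.0075), and these last 2 genes did not overlap between stages. PVR3-like protein (Zm00001d005146) fell from 13.7 to 205 FPKM at jointing (median 68.1) to 0 to 14.7 FPKM at big flare (median 4.63) (-3.89 ± 0.76, adjusted p = 0.0082). A cortical cell-delineating protein gene (Zm00001d002721), named from the maize root cortex, fell from 7.48 to 56.8 FPKM at jointing (median 27.3) to 0 to 8.4 FPKM at big flare (median 0.665) (-3.73 ± 0.61, adjusted p = 0.0036) and stood at 106 to 683 FPKM at tasseling. Big flare libraries enter both neighbouring steps, so the tasseling levels given here are set beside the step as values only.

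Within single hybrids, with 2 libraries a side, 89 genes passed in the low hybrid (0.332% of those tested), 132 in the middle (0.493%) and 35 in the high hybrid (0.131%). These counts borrow the spread from all 18 libraries, and a fit on the 12 alone gave 2, 62 and 3. They do not show that the hybrids differ, which is the question of the test of step by hybrid. For the 20 genes with the largest changes the sign was the same in all 3 hybrids, as the rule for naming them required. The 3 steps of ETC3 were 6.69 ± 0.91, 4.17 ± 0.91 and 5.92 ± 0.91 in the low, middle and high hybrid. For xylem cysteine proteinase 2 (Zm00001d035689) they were -6.45 ± 1.27, -5.61 ± 1.27 and -4.43 ± 1.27.

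**Figure D5:**
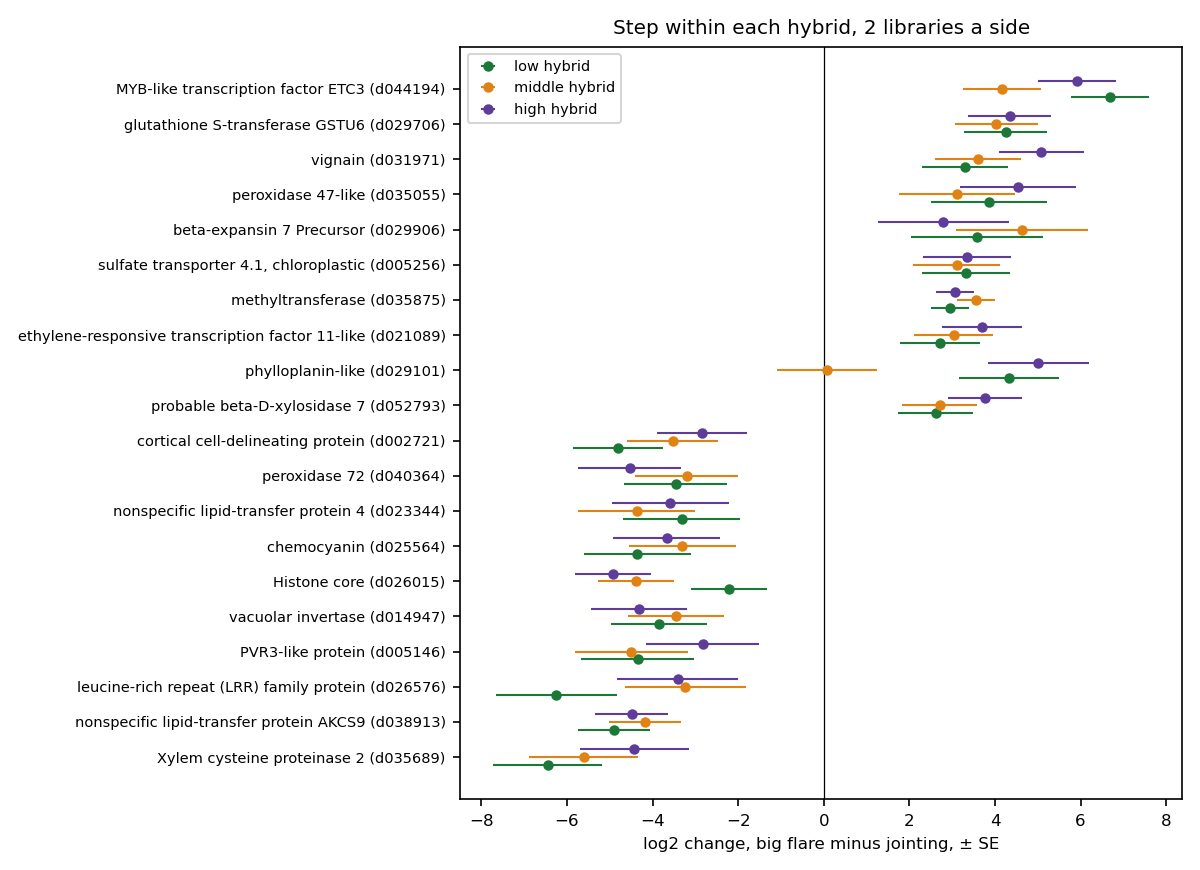
The step of the 20 genes with the largest changes within the low, middle and high hybrid, as log2 change with its standard error (2 libraries a side). The phylloplanin-like gene has a step near 0 in the middle hybrid, at 0.07, against 4.32 and 5.01 in the low and high hybrid.

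The step differed between hybrids for 12 genes (0.0448% of those tested; limma's moderated F test), of which 9 were listed at 0 in at least 6 of the 12 libraries. The 6 genes with informative names and the smallest adjusted p included 4 matches to the nuclease HARBI1, a protein derived from a Harbinger transposase. BGI_novel_G000490 was listed at 28.7 and 18.6 FPKM in the middle hybrid at big flare, at 0.32 in low jointing 2 and at 0 in the other 9 (adjusted p = 0.00027 for the difference between hybrids). BGI_novel_G000492 had 28 and 16.7 FPKM in those middle libraries and 0 in the other 10 (0.0018). BGI_novel_G000495 had 20 and 9.73 FPKM there and 0 elsewhere (0.0023). In the 6 tasseling libraries none of these 3 passed 0.69 FPKM. They therefore met the filter only through the middle big flare libraries in which they were high. Groups listed at 0 in both libraries also add no spread. The p-values of these 3 are thus no independent support for a difference between hybrids. BGI_novel_G000496, the fourth match, had 17.8 and 25.5 FPKM in the middle hybrid and did not pass (adjusted p = 0.13). Its levels in the other 10 libraries are not given here. Reads of near-identical copies may be split between these 4 genes.

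The DEAD-box RNA helicase 15-like gene BGI_novel_G001576 was listed at 5.78 and 5.04 FPKM in the middle hybrid at big flare and at 0 in the other 10 libraries (adjusted p = 0.015 by the same test). In the middle hybrid it was also present at tasseling, at 4.82 and 7.3 FPKM. A gag-pol polyprotein gene (Zm00001d040895), of a retroelement, was instead listed in the low hybrid at big flare, at 4.29 and 14.7 FPKM, and at 0 in the other 10 libraries, and did not pass (adjusted p = 0.11). The averaged step of these 6 genes passed the threshold, although for those other than BGI_novel_G000496 a single hybrid showed it. For all 6 that call was lost with an additive fit on the 12 libraries, at adjusted p of 0.162 to 0.203. BGI_novel_G000496 also lost it with a pseudocount of 0.1.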

How the data were processed

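RNA from maize stem was read as poly-A selected libraries (TruSeq V2 kit, 12 PCR cycles, paired reads of 100 bases, per the labels' protocols). The FPKM values were deposited by the authors in a table of all 18 libraries and 34474 genes. Per the submitters' processing notes, TopHat2, Cufflinks 2.2.1, Cuffdiff, DESeq 1.28.0 and the B73 RefGen_v4 genome were used, with no role given. Counting rules and strand were not given in the sources used here. FPKM divides by mapped fragments, so very abundant genes in a library lower its other values, and log2(FPKM + 1) understates the change of low genes. Depth in reads is unknown, so no interval or detection limit is given.

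Genes with an FPKM of at least 1 in at least 2 of the 18 libraries were tested, which left 7682 out. A model of 9 group means over 18 libraries was fitted with limma 3.58.1 in R 4.3.3 (empirical Bayes with a trend, 9 residual degrees of freedom), after a test on simulated data. Steps within a hybrid and a moderated F test of step by hybrid came from the same fit, adjusted in the same way. Calls used an adjusted p below 0.05.

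The text names 157 genes by this rule: the 10 largest rises and falls with 1 sign in all hybrids, a mean of at least 5 FPKM at the higher stage and an informative name; the 2 called members each way with the smallest p in each of 42 gene lists (or, with none called, the 2 most abundant); the 6 smallest p of the F test; and every KNOX and gibberellin oxidase gene. Not all 157 are printed. Lists were drawn by words in the protein names, were edited after those names were seen, and were chosen, like the comparison, with earlier results of these data known. The 12 genes of the plot by stage, and the count of which big flare library lay nearest to jointing, were chosen after values were seen. Relative depth came from pairs of libraries, as the ratio of the smallest steps between FPKM values of low genes.

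Alternatives were another scaling, pseudocount, filter, set of libraries, replicate block and each library left out. Leaving out low jointing 2 and low big flare 1 together was chosen after seeing the data.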

Additional observations from a re-analysis of the deposited data

Results flagged for a closer look

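Each library group of 6 at a stage was checked for a library whose gap to its nearest neighbour took an unusual share of the range, above the critical value of Dixon's test. Chance gives about 1 such group in 20, and each of the 157 named genes offers 2 groups. The flags below are about as many as that rate gives, so none is read as a result about its gene or library. The rate also assumes libraries of 1 kind, while each group mixes the hybrids. The cause of the flags was not tested.

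At jointing, middle jointing 1 stood above the other 5 libraries for GSTU6 (Zm00001d029706) at 8.87 FPKM, for endo-1,4-beta-xylanase (Zm00001d039958) at 21.57 and for beta-expansin 7 (Zm00001d029906) at 33.85. These 3 genes rose to big flare. Middle jointing 2 was low for glutathione S-transferase Zm00001d036951 at 1.41 FPKM and high for sulfate transporter 4.1 (Zm00001d005256) at 1.49. Low jointing 1 was low for the oxygen-evolving complex gene Zm00001d027422 at 5.43 FPKM and for xyloglucan endotransglycosylase (Zm00001d024386) at 471.83, and high for peroxidase 50-like (Zm00001d005279) at 3.31 and for a squamosa promoter-binding-like gene (Zm00001d052905) at 32.53. High jointing 1 was high for the phylloplanin-like gene (Zm00001d029101) at 4.13 FPKM. High jointing 2 was low for a WRKY gene (Zm00001d038810) at 18.84, and low jointing 2 was the single jointing library above 0 for the HARBI1 match BGI_novel_G000490, at 0.32.

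At big flare, high big flare 1 was low for ARR9 (Zm00001d011849) at 5.93 FPKM and high for Zm00001d012712, a gibberellin 2-beta-dioxygenase-like gene, at 1.48. Middle big flare 2 was low for peroxidase 47-like (Zm00001d035055) at 12.75, and middle big flare 1 was low for a histone H3 gene (Zm00001d016908) at 22.59. The squamosa promoter-binding-like gene, which rose, lost its call without low big flare 2, middle jointing 2 or middle big flare 1 and with low jointing 2 and low big flare 1 both left out (adjusted p up to 0.0563). The histone H3 gene, which fell, lost its call under 8 of the 12 single-library omissions (all but those of low jointing 2, low big flare 1, middle big flare 2 and high jointing 1) (adjusted p up to 0.097).

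The step differed between hybrids, by limma's moderated F test, for the HARBI1 matches BGI_novel_G000490 (adjusted p = 0.00027286), BGI_novel_G000492 (0.0018329) and BGI_novel_G000495 (0.0022744) and for the helicase 15-like gene BGI_novel_G001576 (0.014837). Each was present at big flare in both libraries of the middle hybrid and at 0 in both big flare libraries of the other hybrids. The HARBI1 matches met the filter only through those middle libraries, so their p-values are no independent support for the difference.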

How the results depend on the processing

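The deposited values carry no read counts, and with 2 libraries a group single libraries weigh heavily. Over 21 alternatives, 84 of the 133 called genes named by the rule kept their call under every one. Counts of higher genes ranged from 953 to 2122 with 1 library left out and of lower genes from 641 to 1855. The counts within the low, middle and high hybrid ranged from 12 to 346, 29 to 189 and 12 to 70, and the count of genes that differed between hybrids from 11 to 29. A fit on the 12 libraries alone gave 813 lower genes and 2, 62 and 3 genes within hybrids. Quantile normalization gave 155 genes in the low and 81 in the high hybrid, median-of-ratios scaling gave 69 in the high hybrid, and no filter gave 81 there and 57 genes that differed between hybrids. Without both low jointing 2 and low big flare 1, 84, 172 and 63 genes passed within the hybrids and 1486 and 1666 were higher and lower. The cause of these shifts was not tested, beyond the fewer libraries in some fits.

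With the replicate number as a replicate block, 1726 genes were higher and 1226 lower, and 62, 112 and 29 passed within hybrids. Deviations of libraries with the same number correlated at -0.43 to 0.262 across the 15 pairs of groups. These values cannot show whether such libraries shared a batch, since batches may be numbered differently between groups.

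The step turned its sign in 9 genes, none of them called. Without single libraries, or both low libraries together, steps crossed 0 and ran for liguleless 3 (Zm00001d040611) from -0.223 to 0.168, for rough sheath 1 (Zm00001d007842) from -0.178 to 0.127 and for liguleless 4 (Zm00001d010948) from -0.0809 to 0.289. They ran for the knotted-like gene (Zm00001d053749) from -0.13 to 0.0324 and for knotted related homeobox 8 (Zm00001d034212) from -0.0322 to 0.456. Among gibberellin oxidases they ran for 20-oxidase 2 (Zm00001d049926) from -0.192 to 0.332, the 2-beta-dioxygenase-like gene (Zm00001d012712) from -0.263 to 0.0861, 20-oxidase 1 (Zm00001d034898) from -0.708 to 0.0314 and a second 20-oxidase 2 (Zm00001d029744) from -0.847 to 0.304. Median-of-ratios scaling gave -0.124 for liguleless 3 and -0.0228 for Zm00001d049926, and quantile normalization gave -0.0774 for liguleless 3. Of the 3297 values of named genes, 298 lost a call and 9 gained one.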
